A study of Mus musculus with 4 samples.

Results

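Cytotoxic lymphocytes were identified in single-cell RNA sequencing libraries of mouse small intestinal adenomas by the genes that they expressed. A barcode was kept when it held at least 1000 unique molecular identifiers (UMIs, each counting 1 captured mRNA molecule), at least 200 genes and at most 20% mitochondrial UMIs. A kept barcode was called a cytotoxic lymphocyte when at least 2 of the 5 lymphocyte genes Cd3d, Cd3e, Cd3g, Cd7 and Cd8a were detected with at least 1 UMI of the granzymes Gzma and Gzmb, when the epithelial genes Epcam, Krt8 and Krt19 made up less than 0.2% of its UMIs, and when the B cell gene Cd79a was at 0. This rule found 459 cells among 12349 kept barcodes. The 7 lymphocyte and granzyme genes of the rule are therefore given as a description, with no test against other cells.

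The adenomas came from 2 groups of 11-week-old C57BL/6 mice, which all carried the ApcMin/+ allele and were all labelled male. The ApcMin group was Lef1 +/+, and the VApcMinL group was Lef1 fl/fl with Villin-Cre, which is active in the intestinal epithelium, so that lymphocytes lie outside its reach. Several tumors were dissociated for a library without sorting, there were 2 libraries per group, and the sources used here do not state how many mice each library held. Replicate 1 of each group was made with reagent kit V2 and replicate 2 with reagent kit V3. Values of the 4 libraries are ordered by kit, with the ApcMin and then the VApcMinL library of kit V2 followed by the same pair of kit V3, unless a library is named.

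Cytotoxic lymphocytes of the gut lie mainly between the epithelial cells. They carry either an αβ or a γδ T cell receptor, a heterodimer that signals through the CD3 chains. Many of them show CD8 as a dimer of α chains, without the β chain of the CD8 on circulating killer T cells, and bear receptors that are better known from natural killer cells. Such cells rest in an armed state: they store granzymes, the serine proteases that enter a target cell through perforin pores, and are held in the epithelium by the integrin αE, which binds E-cadherin. The position of a cell in the tissue was not measured here, and membership rests on transcripts alone.

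The libraries held from 44660305 to 128247396 UMIs, with more in the kit V3 pair. Cytotoxic lymphocytes were small cells by RNA content, with medians of 2058, 2199.5, 2961 and 2040.5 UMIs against medians from 8749 to 25471 UMIs over all kept barcodes. No cytotoxic lymphocyte barcode was shared between libraries of a kit. Lef1 was too low in these cells to check the group labels, with 5, 4, 1 and 7 UMIs, and its level in epithelial cells was 1.44, 0.736, 0.551 and 4.88 CPM (UMIs scaled to the same total in every library). In direction, the epithelial level went with the labels in the kit V2 pair and against them in the kit V3 pair. These epithelial values all lay below the 5.95 to 13.7 CPM of Lef1 in free RNA. For scale, Gzma stood at 12.9, 18.8, 1.02 and 2.54 CPM in the same epithelial cells against 279, 363, 49.8 and 66.2 CPM in free RNA. The part of free RNA in the epithelial Lef1 level was not tested. As the kits differed in direction, the labels were not borne out by Lef1. The label male was not borne out in the VApcMinL libraries. Of the cytotoxic lymphocytes, 139 of 154 in VApcMinL replicate 1 had UMIs of Xist, the female X-inactivation transcript, and none of its cells had UMIs of the Y-linked genes. In VApcMinL replicate 2, 31 cells had Xist alone, 37 had Y-linked genes alone and 3 had both. In the ApcMin libraries, no cell had Xist alone and 54 and 18 cells had Y-linked genes alone. Sex thus moved with genotype, and their parts in any difference between the groups cannot be told apart.

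Granzyme A was the leading effector transcript of these cells. The gene (chr13:113093825-113100981, minus strand, GRCm38) encodes a tryptase of cytotoxic granules. It reached 23026, 32583, 23927 and 24725 CPM (counted from 3′ ends, so that gene length does not enter), that is 2.30, 3.26, 2.39 and 2.47% of all their mRNA molecules. Genes were ranked by mean CPM with ribosomal protein genes, mitochondrial genes and genes named Gm with a number left out. In this ranking, only the chemokine Ccl5 and the nuclear RNA Malat1 stood above Gzma. Gzmb, an aspartate-specific protease that triggers apoptosis, stood at 3444, 3284, 2524 and 2363 CPM and ranked 11. Both granzymes were detected in 354 of the 459 cells, Gzma alone in 85 and Gzmb alone in 20. The median cell held 50, 82.5, 70 and 49.5 Gzma UMIs, so most cells lay far above the threshold of 1 granzyme UMI.

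The cells near the threshold looked different from the bulk. A total of 400 cells held 6 or more granzyme UMIs, 33 held 2 to 5 and 26 held exactly 1, while 319 cells met all other terms of the rule with no granzyme UMI. Ccl5 stood at 40650 CPM in the cells with 6 or more granzyme UMIs, at 6406 CPM in those with 2 to 5, at 3893 CPM in those with 1 and at 3134 CPM in those with none. Nkg7, a membrane protein of cytotoxic granules, stood at 2393, 942, 546 and 786 CPM in the same order. At the other thresholds, 57 cells had exactly 2 of the lymphocyte genes and 36 granzyme-positive cells with 1 such gene were outside. A further 31 cells had an epithelial share from 0.15 to 0.2%, and 13 cells from 0.2 to 0.25% were outside. Those 13 cells held 29265 CPM of Ccl5 and 20265 CPM of Gzma, close to the 30359 and 25576 CPM of the 31 cells inside the limit.

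**Figure D1:**
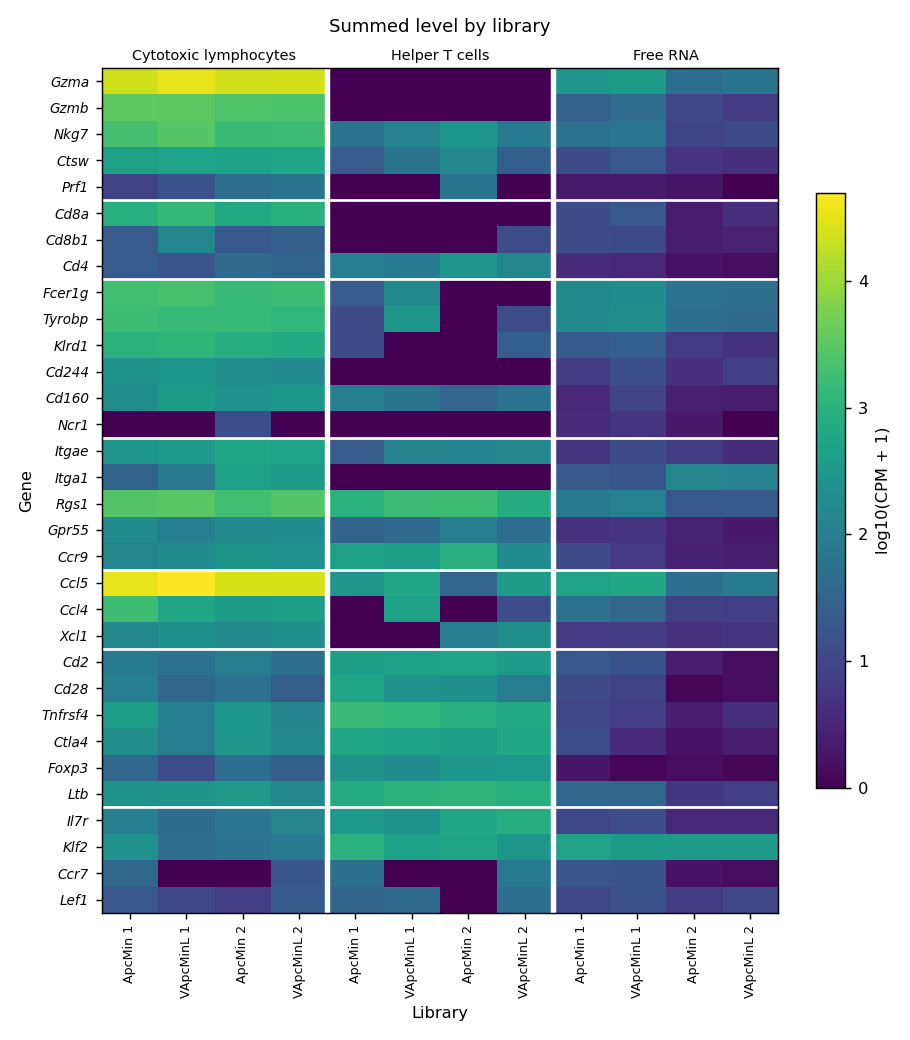
Heat map of the summed level of each gene (rows) in each of the 4 libraries (columns), for cytotoxic lymphocytes, for helper T cells (T cells with a helper gene and no UMI of Cd8a, Gzma or Gzmb) and for free RNA (barcodes of at most 100 UMIs), with colour for log10(CPM + 1) and white lines between gene groups. Ccl5 and Gzma are brightest, at 23026 CPM or more in the cytotoxic lymphocytes of all 4 libraries, while Cd8b1 and Prf1 lie at or below 140 CPM there.

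The rest of the granule genes showed a narrow set of effectors. Of the 16 genes in the granule and killing list, Nkg7 stood at 2041, 2883, 1599 and 1633 CPM and Ctsw, a protease of cytotoxic lymphocytes, at 470, 529, 496 and 572 CPM. Srgn, the proteoglycan on which granule contents are packed, ranged from 914 to 1500 CPM. By contrast, perforin (Prf1), which forms the pores for granzymes, was at 7.18, 14.2, 49.0 and 62.9 CPM, and was detected in 2 of 119, 6 of 154, 7 of 46 and 17 of 140 cells. The kit V3 libraries gave the higher Prf1 values in both groups. Of the other granzymes, Gzmk ranged from 39.5 to 55.1 CPM, Gzmc from 0 to 9.49 CPM and Gzmm from 0 to 2.37 CPM.

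Ccl5 (chr11:83525778-83530518, minus strand, GRCm38), a chemokine that recruits T cells and monocytes, was first by mean CPM in the ranking given above. It stood at 32798, 49704, 25336 and 25483 CPM. Malat1, at 34883, 36759, 30078 and 23793 CPM, lay above it in the ApcMin libraries. Ccl4 and Ccl3, inflammatory chemokines of activated lymphocytes, were lower. Ccl4 stood at 1758, 586, 362 and 432 CPM and Ccl3 at 179, 138, 116 and 217 CPM. Xcl1, which attracts cross-presenting dendritic cells, ranged from 154 to 230 CPM. Transcripts of the effector cytokines were scarce: Ifng ranged from 25.1 to 57.2 CPM, Tnf from 0 to 32.3 CPM and Il2 from 0 to 25.1 CPM. UMIs of the interferon-γ gene Ifng were found in 7, 7, 5 and 10 cells.

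The CD8 co-receptor was of α chain transcripts almost alone. Cd8a (chr6:71373427-71379173, plus strand, GRCm38) is part of the rule and stood at 922, 1324, 711 and 941 CPM, with at least 1 UMI in 61.3, 81.8, 69.6 and 70.7% of the cells. Cd8b1 (chr6:71322788-71337494, plus strand), which encodes the β chain, is not part of the rule and stood at 21.5, 140, 18.4 and 25.7 CPM. It was detected in 26 of the 459 cells, with 3, 16, 2 and 5 cells per library, against 0, 2, 0 and 0 of the 142, 368, 389 and 589 epithelial cells used as a background for free RNA. The 16 cells of VApcMinL replicate 1 carried 59 of the 77 Cd8b1 UMIs. Cd4 was found in 19 of the 459 cells.

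To compare the share of Cd8b1-positive cells at equal depth, each cell was thinned to 1000 UMIs. Cd8b1 was then seen in 2 of 119, 14 of 154, 0 of 46 and 2 of 140 cells. These are shares of 1.68% (95% exact binomial interval 0.204 to 5.94), 9.09% (5.06 to 14.8), 0% (0 of 46 cells, which allows up to 6.52%) and 1.43% (0.173 to 5.07). VApcMinL exceeded ApcMin by 4.42 percentage points on average, by 7.41 points in the kit V2 pair and by 1.43 points in the kit V3 pair. With means of 0.840% ± 1.19 and 5.26% ± 5.42 (SD, n = 2 each), the groups overlapped (two-sided exact permutation test, p = 0.667, where 6 arrangements of the libraries allow no p below 0.3333). An exact permutation test within each kit, added after the data were seen, gave p = 0.5, the smallest that its 4 arrangements allow. The difference was 0.588 points without VApcMinL replicate 1. Intervals cover counting error only.

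The receptor chains were listed only in the gene tables of the kit V3 libraries, so their use was described there, with 1 library per group and no test. Trdc (chr14:54142851-54148868, plus strand, GRCm38), the constant region of the δ chain, lies within the same locus as Trac (chr14:54220521-54224206, plus strand), that of the α chain. Trdc was detected in 24 of 46 cells of ApcMin replicate 2 and in 71 of 140 cells of VApcMinL replicate 2. In T cells with helper genes and no granzyme UMI, it was found in 0 of 11 and 1 of 31 cells, and in epithelial cells in 1 of 389 and 2 of 589. The Trdc signal was thus far above that in cells that should lack it. The γ chain constant genes Tcrg-C1, Tcrg-C2 and Tcrg-C4 were seen together in 33 of 46 and 103 of 140 cytotoxic lymphocytes, and in 0 of 11 and 3 of 31 helper T cells.

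The cells fell into groups by the δ and α chains. Trdc without Trac was found in 11 of 46 cells (23.9%, 95% exact binomial interval 12.6 to 38.8) in ApcMin replicate 2 and in 45 of 140 (32.1%, 24.5 to 40.6) in VApcMinL replicate 2. Trac without Trdc was found in 17 (37.0%) and 40 (28.6%) cells, both genes in 13 and 26 cells, and neither in 5 and 29 cells. A γ chain constant gene gave UMIs in 9 of 11 and 39 of 45 cells with Trdc alone. It also did so in 9 of 17 and 21 of 40 cells with Trac alone, so these genes were not confined to the Trdc cells. Trbc1 or Trbc2, the β chain constant genes, gave UMIs in 8 of 11 and 38 of 45 cells with Trdc alone. Their levels in those cells, 487 and 707 CPM for Trbc1 and 1355 and 610 CPM for Trbc2, were well above the 4.63 and 5.90 CPM of Trbc1 and the 8.59 and 12.2 CPM of Trbc2 in barcodes of at most 100 UMIs, which hold free RNA. A stricter definition of the γδ type, Trdc with no Trac, Trbc1 or Trbc2 after thinning to 1000 UMIs, held for 2 of the 24 cells of ApcMin replicate 2 and 10 of the 82 cells of VApcMinL replicate 2 that could be assigned to either type, or 8.33 and 12.2%. The Trdc and Trac split on full counts was chosen after the Trbc UMIs of Trdc-positive cells had been seen. After thinning to 1000 UMIs, Trdc without Trac was found in 13 and 45 cells, Trac without Trdc in 9 and 33, and neither in 20 and 51. The order of the 2 types in ApcMin replicate 2 thus depended on depth.

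**Figure D2:**
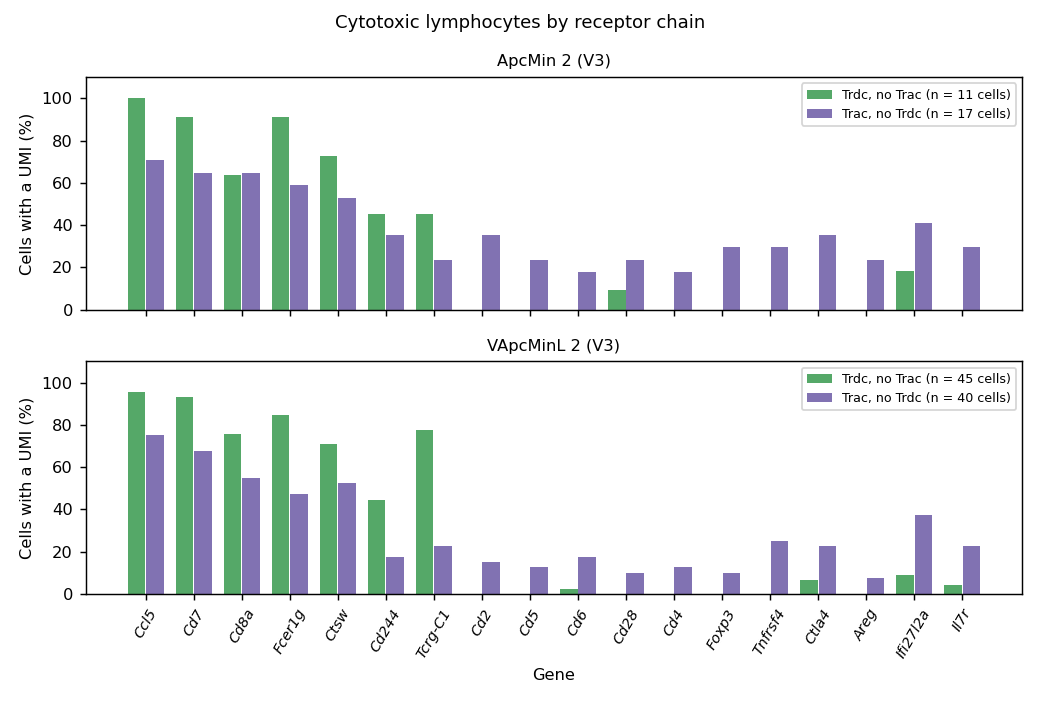
Bars give the percentage of cells with at least 1 UMI of each gene among cytotoxic lymphocytes with Trdc and no Trac (green) and among those with Trac and no Trdc (purple), in the kit V3 libraries (11 and 17 cells of ApcMin replicate 2, 45 and 40 cells of VApcMinL replicate 2). Cd2, Cd5 and Foxp3 were at 0% in the Trdc cells of both libraries, whereas Fcer1g was at 90.9 and 84.4% there against 58.8 and 47.5% in the Trac cells.

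The Trdc cells and the Trac cells are set side by side without a test. Gzma was detected in 100 and 97.8% of the Trdc cells and in 94.1 and 92.5% of the Trac cells. Gzmb stood at 3823 and 2798 CPM in the Trdc cells and at 1816 and 1618 CPM in the Trac cells. Its level was thus higher in the Trdc cells of both libraries. The share of cells with a Gzmb UMI was 81.8 and 88.9% against 82.4 and 75%, which differed in direction. Both granzymes are part of the rule, as are Cd8a and Cd7 below, so their shares were shaped by the choice of cells. Cd8a was detected in 63.6 and 75.6% against 64.7 and 55%, which differed in direction between the libraries. Cd2, an adhesion receptor of T cells, was detected in none of the 11 and 45 Trdc cells and in 35.3 and 15% of the Trac cells. Cd5, an inhibitor of T cell receptor signalling, was likewise at 0% in the Trdc cells and was detected in 23.5 and 12.5% of the Trac cells. Foxp3, the regulatory T cell factor, was at 0% against 29.4 and 10%, and Cd4 at 0% against 17.6 and 12.5%. In the opposite direction lay Fcer1g, a signalling adaptor of Fc and killer cell receptors, Cd7, with 90.9 and 93.3% against 64.7 and 67.5%, and Ccl5, with 100 and 95.6% against 70.6 and 75%. These shares come from 1 library each and the median depth was lower in the Trdc cells (2423 and 1940 UMIs) than in the Trac cells (3628 and 2388.5 UMIs), so low genes had less chance of detection there.

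Cytotoxic lymphocytes were found in all 4 libraries at a few percent of the kept barcodes. There were 119 of 2797, 154 of 2959, 46 of 2145 and 140 of 4448, or 4.25% (95% exact binomial interval 3.54 to 5.07), 5.20% (4.43 to 6.07), 2.14% (1.57 to 2.85) and 3.15% (2.65 to 3.70). Within both kits the VApcMinL library held the larger share, by 0.9499 points in kit V2 and 1.00 point in kit V3. The size depended on the quality terms. A mitochondrial limit of 10% gave 1.93 points in kit V2 and 0.0606 points in kit V3. A floor of 2000 UMIs gave 1.68 and 0.0885 points. The group means were 3.20% ± 1.49 for ApcMin and 4.18% ± 1.45 for VApcMinL (SD, n = 2 each), a difference of 0.976 points. These SDs hold the difference between the kits, which was 2.11 points in ApcMin and 2.06 points in VApcMinL. The two-sided exact permutation test gave p = 0.667 over all libraries and p = 0.5 within kits, where neither design can pass the threshold, so that an equal share was not shown. The sign turned without VApcMinL replicate 1 (-0.0521 points) and without ApcMin replicate 2 (-0.0786 points), which left kits unbalanced.

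Since the share of kept barcodes moves with how many epithelial cells were recovered, the cells were also counted among the 778 T-type cells, which met the rule without its granzyme term. Cytotoxic lymphocytes made up 60.7, 55.6, 59.0 and 61.7% of them. The means were 59.8% ± 1.23 in ApcMin and 58.6% ± 4.30 in VApcMinL (SD, n = 2 each). The difference of -1.21 points did not pass (two-sided exact permutation test, p = 1.00 over all libraries and within kits) and differed in sign between the kits, with -5.12 points in kit V2 and 2.70 points in kit V3. It was 4.18 points when only barcodes of at least 2000 UMIs were kept, and 1.83 points without VApcMinL replicate 1. With the rule applied after thinning to 1000 UMIs it was -7.51 points, with -8.64 in kit V2 and -6.39 in kit V3. At an epithelial limit of 0.1% it was -3.37 points, with -5.45 and -1.29 by kit.

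**Figure D3:**
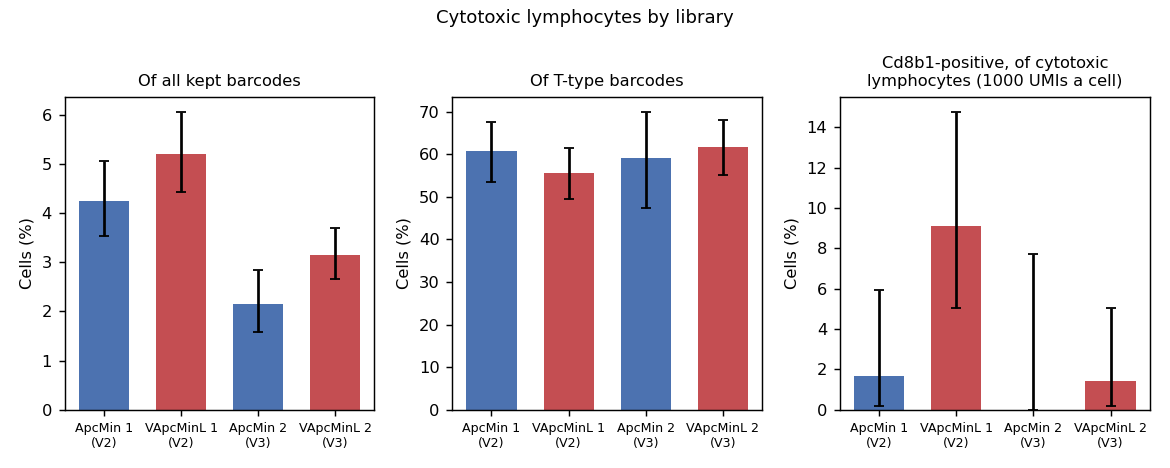
Bars give, for each library (blue for ApcMin, red for VApcMinL, kit in parentheses), cytotoxic lymphocytes as a percentage of kept barcodes (left) and of T-type cells (middle), and Cd8b1-positive cells as a percentage of cytotoxic lymphocytes thinned to 1000 UMIs (right), with black lines for the 95% exact binomial interval. The shares of kept barcodes lie between 2.14 and 5.20%, VApcMinL replicate 1 stands highest at 9.09% on the right, and the groups overlap in all 3 panels.

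To see how these cells differed from T cells of another type, they were compared with helper T cells of the same libraries. Helper T cells met the same quality, epithelial and Cd79a terms with at least 2 of Cd3d, Cd3e, Cd3g and Cd7, at least 1 UMI of Cd4, Foxp3, Icos or Cd40lg, and no UMI of Cd8a, Gzma or Gzmb. There were 33, 19, 11 and 31 of them. UMIs were summed per library and cell group, and the genes of either rule were left out of the calls. Among the genes that passed the test, Ccl5, Nkg7, Klrd1 and the adaptors Fcer1g and Tyrobp were higher in cytotoxic lymphocytes, and Cd2, Cd28, Klf2, Il7r and Tnfrsf4 were lower.

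Of 1844 genes fitted in edgeR (quasi-likelihood test) with the library as a block, 230 passed an adjusted p of 0.05 (12.5%). Of these, 109 were higher in cytotoxic lymphocytes (5.91% of the genes tested) and 121 lower (6.56%), and the median log2 difference over all genes was 0.02. As the cytotoxic sums held 1213000 UMIs and the helper sums 254788, a gene could pass the filter on low counts through cytotoxic lymphocytes alone. The counts over gene lists that follow describe the genes that passed and are no support by themselves. The cells of both groups were picked by transcripts of these same libraries, so a gene that varies with the rule genes from cell to cell can differ here as well.

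**Figure D4:**
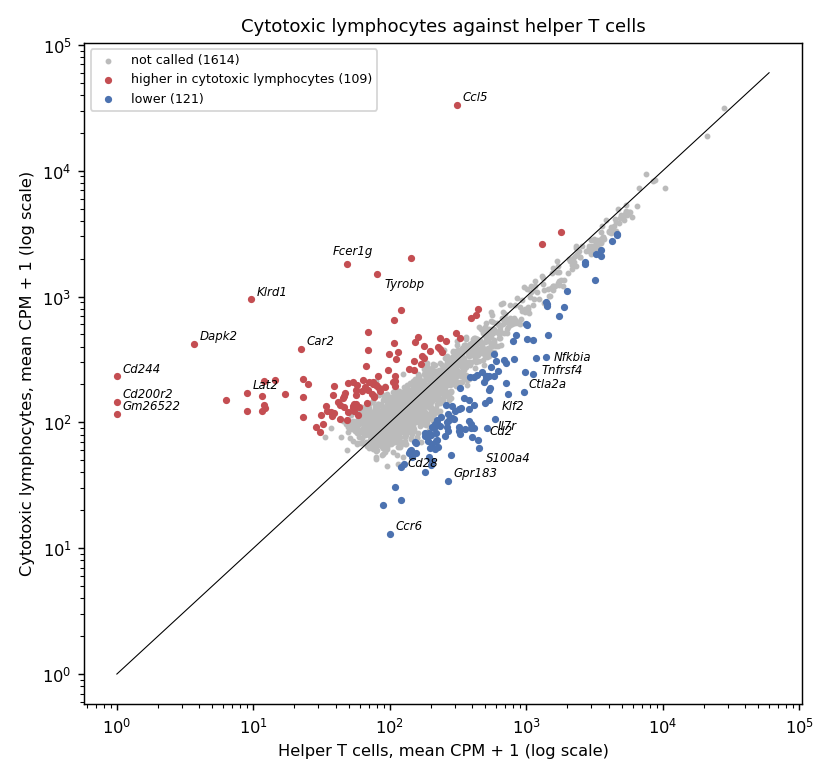
Mean CPM over the 4 libraries in cytotoxic lymphocytes against helper T cells, each plus 1, on log scales, for 1844 genes, with a line where both are equal. Red points are the 109 genes higher and blue points the 121 genes lower in cytotoxic lymphocytes at an edgeR adjusted p under 0.05, and Ccl5 stands apart at 33330 CPM against 310 CPM.

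All 5 killer cell receptor genes that passed the filter, of 15 listed, were higher in cytotoxic lymphocytes, with a median log2 difference of 5.58 (4.64 with Cd244 set at its lower bound). Klrd1, the CD94 chain that pairs with NKG2 receptors, stood at 1051, 1182, 858 and 701 CPM against 10.7, 0, 0 and 24.1 CPM in helper T cells. Every cytotoxic library thus lay above every helper library. The 1176 and 3 UMIs give a ratio of 82.3 (95% counting interval 28.1 to 399.8), and edgeR gave a log2 difference of 6.32 ± 0.41 (SE, adjusted p = 1.43e-13). Cd244, a receptor of the SLAM family, had 70, 124, 32 and 64 UMIs against none in helper T cells, so that it was at least 20.3-fold higher, taking 3 counts over the helper group as the floor. Cd160, a receptor for the TNF family member HVEM, was higher by a log2 of 1.97.

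The adaptors Fcer1g and Tyrobp, which carry the activating motifs for receptors that lack them, were both abundant. Fcer1g stood at 1887, 2093, 1477 and 1736 CPM against 21.3, 170, 0 and 0 CPM, with a log2 difference of 5.58 ± 0.36 (SE, edgeR adjusted p = 1.43e-13). Tyrobp stood at 1758, 1545, 1501 and 1236 CPM against 10.7, 297, 0 and 12.03 CPM, with a log2 difference of 4.64 ± 0.39 (SE, edgeR adjusted p = 1.03e-10). The groups did not overlap for either gene. Fcer1g was not particular to the cytotoxic lymphocytes among T-type cells. It stood at 1038 CPM, and Nkg7 at 786 CPM, in the 319 T-type cells with no granzyme UMI. Both adaptors are also expressed by macrophages, and the helper T cells of VApcMinL replicate 1 included 1 cell with 69 UMIs of the macrophage gene Lyz2. Among cytotoxic lymphocytes, the summed level of the 10 macrophage and myeloid genes was 233, 21.4, 24.5 and 120 CPM against 1065, 1055, 295 and 298 CPM in free RNA. Of these 10 genes, 2, 5, 7 and 3 were at 0 in them. The highest was C1qb, with 71.8, 2.37, 0 and 31.5 CPM, and in ApcMin replicate 1 a single cell held 80% of its 20 UMIs. In that library and VApcMinL replicate 2, 1 cell each had 3 or more of the 10 genes, and none did in the other libraries. The part of macrophage RNA in the levels of the adaptors was not tested.

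The other killer cell receptor genes did not pass the filter on low counts and were not tested. Slamf7, a receptor of the SLAM family, stood at 68.2, 45.1, 49.0 and 97.3 CPM, and Klrb1c, the NK1.1 gene, had 10, 5, 3 and 4 UMIs. Klrk1, which encodes NKG2D, had 2, 1, 4 and 9 UMIs in all. Klrc1 had 1, 1, 0 and 0 UMIs, Ncr1, the NKp46 gene of natural killer cells, had 0, 0, 2 and 0, and Kir3dl1 had none. Klre1, a partner of inhibitory killer receptors, was detected at 93.3, 66.4, 122 and 45.8 CPM, with no UMI in helper T cells.

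In the granule list, 5 of the 8 genes tested of 16 were higher and none was lower, with a median log2 difference of 2.07. Nkg7 led with 2041, 2883, 1599 and 1633 CPM against 63.9, 127, 293 and 84.2 CPM, a log2 difference of 4.20 ± 0.26 (SE, edgeR adjusted p = 1.1e-13). Ctsw was higher by 3.47 ± 0.35, and Fasl and Tnfsf10, death ligands that act without granules, by 2.86 ± 0.47 and 2.56 ± 0.55 on the log2 scale. Cst7, an inhibitor of lysosomal cathepsins, was higher by 1.59. Srgn, Serpinb6b and Lamp1 did not pass, with log2 differences of -0.29, 0.70 and -0.04.

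Among cytokines and chemokines, 7 of 16 genes were tested, 3 were higher and 2 lower, with a median log2 difference of 1.40. Ccl5 rose from 277, 594, 32.6 and 337 CPM in helper T cells to 32798, 49704, 25336 and 25483 CPM, the smallest adjusted p of the comparison (log2 difference 6.77 ± 0.22 SE, edgeR adjusted p = 1.2e-21). Ccl4 and Xcl1 were higher by 3.17 and 1.44. Ltb, the lymphotoxin β chain that shapes lymphoid tissue, had a log2 difference of -1.90 ± 0.20, with 244, 271, 343 and 152 CPM against 778, 1082, 1141 and 914 CPM. Areg, an epidermal growth factor ligand made by regulatory T cells, fell by 1.18 on the log2 scale.

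The residence genes did not move as a block. Of the 16 genes listed, 9 were tested, 4 were higher and 2 lower, with a median log2 difference of -0.28. Itgae, the integrin αE chain, stood at 280, 330, 570 and 523 CPM against 21.3, 127, 130 and 144 CPM in helper T cells. All 4 cytotoxic values were above all helper values, and the log2 difference was 2.18 ± 0.30 (SE, edgeR adjusted p = 1.59e-06). Runx3, a factor for CD8 lineage and residence programs, was higher by 1.35, Gpr55, a lipid receptor of intraepithelial lymphocytes, by 1.89 and Rgs1, a brake on chemokine receptor signalling, by 1.19. The gut-homing receptor Ccr9 and the retention marker Cd69 had log2 differences of -0.98 and -0.96, both also present in cytotoxic lymphocytes, at 144 to 270 CPM and 109 to 435 CPM. VApcMinL replicate 2 went the other way for Ccr9, with 232 CPM against 180 CPM in helper T cells. Cd69 was close there, at 435 CPM against 469 CPM. Itga1, the integrin α1 chain, was at 32.3, 75.9, 441 and 352 CPM with no UMI in helper T cells, beside 19.5, 16.9, 137 and 122 CPM in free RNA. Zfp683, which encodes the residence factor Hobit, had no UMI in any library.

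Genes that tune the T cell receptor were lower in part. Of 16 listed genes, 8 were tested, 0 were higher and 4 lower, with a median log2 difference of -0.64. Cd2 stood at 89.7, 54.6, 91.9 and 48.6 CPM against 437, 467, 522 and 349 CPM in helper T cells, and the groups did not overlap (log2 difference -2.56 ± 0.26 SE, edgeR adjusted p = 6.24e-09). Cd28, the main costimulatory receptor of naive T cells, fell by 2.27 ± 0.30 on the log2 scale. Cd6, a relative of CD5, fell by 1.96 ± 0.32, and Lat, a scaffold below the receptor, fell by 0.74. The kinases Lck and Zap70 did not pass, with log2 differences of 0.61 (edgeR adjusted p = 0.0685) and 0.85 (edgeR adjusted p = 0.117). Lat2, a relative of Lat, was by contrast among the 10 genes that rose most, with 215 UMIs against 2, a ratio of 22.6 (95% counting interval 6.18 to 187.6).

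Of the 10 listed genes of circulating and naive T cells, 3 were tested. Klf2 and Il7r were lower, and Cd27, a costimulatory receptor, did not pass (log2 difference 0.49 ± 0.34 SE, edgeR adjusted p = 0.443). Klf2, the factor that drives exit from tissue, stood at 233, 47.5, 61.3 and 77.2 CPM against 1001, 446, 587 and 301 CPM, with a log2 difference of -2.38 ± 0.25 (SE, edgeR adjusted p = 1.08e-08). Il7r, the receptor for the survival cytokine IL-7, fell by 2.34 ± 0.25 on the log2 scale. Outside the list, Ccr6 and Gpr183, which guide lymphocytes to lymphoid follicles, had log2 differences of -3.28 ± 0.72 and -2.82 ± 0.33. Ccr6 had 0, 0, 6 and 4 UMIs in cytotoxic lymphocytes, against 9, 4, 4 and 7 in far fewer helper T cells. S1pr1, also of the list, the receptor for exit into lymph, had 1, 0, 2 and 0 UMIs.

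Inhibitory and activation receptors divided. All 7 genes tested of 13 listed passed, 2 higher and 5 lower, with a median log2 difference of -1.58. Lag3, an inhibitory receptor for MHC class II, had 276 UMIs against 3, a ratio of 19.3 (95% counting interval 6.54 to 94.3), and Il2rb, a receptor chain for IL-15 and IL-2, was higher by 1.94 ± 0.30 on the log2 scale. Tnfrsf4, the costimulatory receptor OX40, stood at 434, 107, 288 and 132 CPM against 1609, 1230, 880 and 734 CPM (log2 difference -2.26 ± 0.24 SE, edgeR adjusted p = 1.08e-08). Ctla4, Tnfrsf18, Il2ra and Tnfrsf9 had log2 differences of -1.58, -1.68, -1.81 and -0.98. Helper T cells were picked by Foxp3 and Icos among other genes, and these genes are known to be high in regulatory T cells. The exhaustion markers Pdcd1, Havcr2 and Tigit stayed at or below 24.5, 20.02 and 14.4 CPM in cytotoxic lymphocytes.

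Of the lineage factors, Gata3 and Maf, which act in helper T cells, had log2 differences of -2.05 ± 0.31 and -1.96 ± 0.28, and none of the 7 tested of 15 listed was higher (median -0.70). Ikzf2, the Helios gene, known from regulatory T cells and from intraepithelial lymphocytes selected on self antigens, was high in both, with 976, 904, 723 and 598 CPM against 1033, 849, 1532 and 674 CPM (log2 difference -0.19 ± 0.19 SE, edgeR adjusted p = 0.621). Tbx21, the T-bet gene, had 15, 18, 8 and 18 UMIs and was not tested, while Eomes had 0, 0, 1 and 1. In the interferon response list, 1 of 5 tested genes of 13 was lower and none was higher. This was Ifi27l2a, with 265 to 420 CPM against 685 to 2015 CPM. In the cell cycle list, Top2a fell by 1.07 on the log2 scale and the other 2 tested genes of 12 did not pass. The groups overlapped for Top2a, with 36.8 to 80.7 CPM against 32.6 to 318 CPM in helper T cells. A single helper T cell held 13 of its 15 UMIs in VApcMinL replicate 1, and another held 7 of 15 in VApcMinL replicate 2. In the stress and early response list, Btg2 was higher, Junb, Egr1, Dusp1, Nr4a1 and Zfp36 were lower, and 9 of the 15 tested genes of 16 did not pass.

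The genes with the largest differences outside the lists were of less defined roles in these cells. Dapk2, a kinase linked to calmodulin, had 547 UMIs against 1, a ratio of 115 (95% counting interval 20.5 to 4546). Cd200r2, of the CD200 receptor family, and Gm26522, a long noncoding RNA (chr7:88278787-88283529, minus strand, GRCm38), had 182 and 136 UMIs against none, so that they were at least 12.7-fold and 9.52-fold higher. Car2, a carbonic anhydrase also made by epithelial cells, stood at 355, 465, 355 and 352 CPM against 0, 84.9, 0 and 0 CPM. The largest falls beyond those named were in S100a4, Ctla2a and Nfkbia, with log2 differences of -2.78 ± 0.27, -2.33 ± 0.23 and -2.15 ± 0.23. Epithelial genes were present in both cell groups, well below free RNA. Their list summed to 2576, 3151, 5263 and 2494 CPM in cytotoxic lymphocytes against 1960, 2885, 4336 and 2130 CPM in helper T cells and 25132, 37726, 27443 and 17508 CPM in free RNA, and 1 of 10 tested genes of 19, Apoa1, was higher (log2 difference 0.81).

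A test of whether the difference between the cell groups depended on genotype, added after the data were seen, called 3 of 1844 genes (0.163%, with 78 at an unadjusted p under 0.05 in edgeR). These were Penk, Ccl4 and Ccl3. Of the 220 Penk UMIs in ApcMin replicate 2, 216 came from 1 cell. The Ccl4 and Ccl3 UMIs of helper T cells in VApcMinL replicate 1, 22 and 17, also came from 1 cell each, and neither gene passed after the helper T cells with 2 or more of C1qa, C1qb, C1qc and Lyz2 were left out (edgeR adjusted p = 0.997 and 1.00).

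The genotype comparison asked whether loss of Lef1 in the epithelium went with a change in the lymphocytes of the adenomas. With all 459 cells, the gene that passed was Xist, which tracks the sex of the animals described above. Of the abundant effector genes outside the rule, Ccl5 differed by a log2 of 0.29 ± 0.27 (SE), Nkg7 by 0.25 ± 0.23 and Ctsw by 0.17 ± 0.24, as VApcMinL against ApcMin, and none of them passed. Every cell was required to carry a granzyme UMI, so the levels of Gzma and Gzmb are given as a description and do not test whether these genes differed.

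The UMI sums of each library were fitted in edgeR (quasi-likelihood test) with the kit as a block. Of 4458 genes, 1 was called (0.0224%), which was higher in VApcMinL, and 168 had an unadjusted p under 0.05. DESeq2 also called 1 gene. The count depended on which cells entered, with 9 calls at a floor of 2000 UMIs per cell, 18 with the cell rule applied after thinning, and 20 to 55 when a library was left out. Without the filter on low counts it was 65. Xist stood at 3.59, 1293, 0 and 309 CPM, with 1, 545, 0 and 108 UMIs, and the log2 difference was 8.43 ± 0.52 (SE, edgeR adjusted p = 0.000359). Summed over groups, the ratio was 374 (95% counting interval 66.9 to 14805). Without the kit block no gene was called, and Xist then had an edgeR adjusted p of 0.213. The 2 kit pairs gave the same sign for 2179 of the 4458 genes (48.9%). Of genes whose log2 difference exceeded 1 in both kits, 12 had the same sign and 24 the opposite sign.

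**Figure D5:**
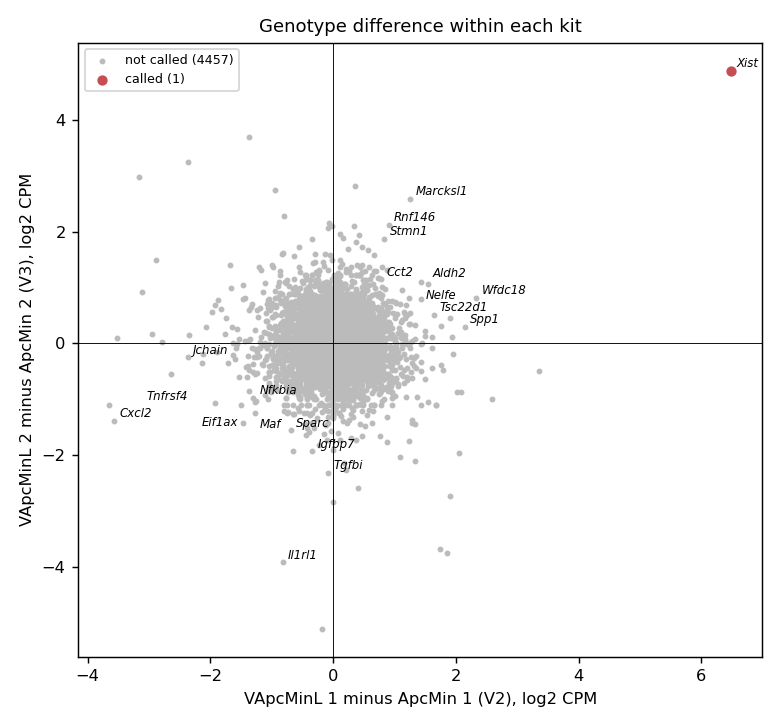
Log2 difference in CPM (prior count of 2) of VApcMinL against ApcMin in cytotoxic lymphocytes, in the kit V2 pair (horizontal) and the kit V3 pair (vertical), with 1 point for each of 4458 genes, the called gene in red and the genes named by rule labelled. Xist, the called gene, is at 6.49 and 4.88, and 2179 of the 4458 genes have the same sign in both pairs.

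Ccl5, Nkg7 and the rule genes Gzma and Gzmb differed by a log2 of at most 0.60 within either kit. Gzma differed by 0.50 in kit V2 and 0.05 in kit V3, Ccl5 by 0.60 and 0.01, Nkg7 by 0.50 and 0.03 and Gzmb by -0.07 and -0.10, all on the log2 scale. Ccl4, which was not called, differed more in kit V2, with 1758 CPM in ApcMin and 586 CPM in VApcMinL. In kit V3 its values were 362 and 432 CPM. For Gzma the highest of the 4 libraries was VApcMinL replicate 1, and the other 3 lay within 23026 to 24725 CPM. The 13 tested genes of the granule list, both rule granzymes among them, had a median log2 difference of 0.06, and the 8 tested killer cell receptor genes one of 0.01, against -0.00 over all genes. Fcer1g, Klrd1 and Itgae differed by 0.18 ± 0.22, -0.07 ± 0.24 and 0.04 ± 0.25 (SE).

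Genes known from regulatory and helper T cells did not pass the test, with lower values in VApcMinL in both kits. Tnfrsf4 stood at 434, 107, 288 and 132 CPM (log2 difference -1.61 ± 0.30 SE, edgeR adjusted p = 0.606). Single cells held 50 of its 121 UMIs in ApcMin replicate 1 and 25 of its 47 in ApcMin replicate 2. Without the cell with most Tnfrsf4 UMIs in each library, the levels were 265, 84.0, 138 and 91.0 CPM, so that ApcMin replicate 2 without that cell lay close to VApcMinL replicate 2 with all of its cells. Maf stood at 108, 37.96, 172 and 65.8 CPM (-1.45 ± 0.32, edgeR adjusted p = 0.886) and Nfkbia, an inhibitor of NF-κB, at 631, 254, 294 and 137 CPM (-1.23 ± 0.26, edgeR adjusted p = 0.827). Ctla4 and Icos differed by -1.01 ± 0.27 and -1.47 ± 0.49. In ApcMin replicate 2, 1 cell held 13 of the 28 Maf UMIs and 1 cell 21 of the 45 Ctla4 UMIs. All 5 tested genes of the 10 in the helper and regulatory list had the same sign in both kits, with a median of -1.23. Foxp3 was found in 10 of 119, 5 of 154, 5 of 46 and 5 of 140 cells. The share of such cells among the members moved with these values, and its part in them was not tested.

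Several other named genes rested on a single library or cell. Il1rl1, the IL-33 receptor, stood at 25.1, 9.49, 931 and 51.5 CPM (log2 difference -3.64 ± 0.52 SE, edgeR adjusted p = 0.161), and 145 of its 152 UMIs in ApcMin replicate 2 came from 1 cell. Without ApcMin replicate 2 its log2 difference was 0.07. Cxcl2, a neutrophil chemokine, stood at 176, 4.75, 190 and 65.8 CPM (-2.66 ± 0.60, edgeR adjusted p = 0.886), and 1 cell held 35 of its 49 UMIs in ApcMin replicate 1 and 1 cell all 31 in ApcMin replicate 2. Jchain, a plasma cell gene, stood at 743, 135, 42.9 and 34.3 CPM, beside 7234, 1946, 337 and 227 CPM of it in free RNA, and its part in the difference was not tested. Tgfbi, Sparc and Igfbp7, genes of stromal cells, were at 215 to 300 CPM in ApcMin replicate 2 and at 65.8 CPM or less elsewhere. In ApcMin replicate 2, single cells held 48 of the 49 Tgfbi, 34 of the 35 Sparc and all 37 Igfbp7 UMIs. In that library and VApcMinL replicate 2, 1 cell each had 3 or more of the fibroblast and endothelial genes.

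On the higher side, Wfdc18, a secreted protease inhibitor, stood at 43.1, 261, 24.5 and 51.5 CPM (log2 difference 2.17 ± 0.43 SE, edgeR adjusted p = 0.663), and Spp1, the osteopontin gene, at 43.1, 228, 30.6 and 40.05 CPM. VApcMinL replicate 1 was the highest library for both, and 1 cell held 43 of its 110 Wfdc18 UMIs. Stmn1, a microtubule regulator of dividing cells, stood at 161, 297, 36.8 and 163 CPM, with a log2 difference of 1.26 ± 0.34 (SE), and 1 cell held 21 of its 45 UMIs in ApcMin replicate 1. Marcksl1, Nelfe, Rnf146, Aldh2, Tsc22d1 and Cct2 had log2 differences from 1.01 to 2.22, none of which passed, and Eif1ax one of -1.34. Stress genes differed in sign between the kits. Fos, an early response gene induced by dissociation, stood at 979, 252, 374 and 609 CPM, and the list of 16 genes had medians of -1.16 in kit V2 and 0.53 in kit V3.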

How the data were processed

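Small intestinal adenomas were profiled with the Chromium 3′ platform in 4 libraries, 2 per group. The authors deposited raw UMI counts per gene and barcode, without a selection of cells. The study's methods and the submitters' processing notes name Cell Ranger 2.1.1, Seurat 3.1.1 and mm10. The 27514 genes listed in all 4 tables were used, and other genes held 0.206 to 0.645% of UMIs. The receptor constant genes Trac, Trbc1, Trbc2, Trdc and Tcrg-C are listed in the kit V3 tables alone (31053 genes against 27998), so their planned comparison over 4 libraries became a description of 2 libraries. No column of other samples was present. Members and gene lists were chosen with earlier results of these data known.

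UMI counts were summed per library and tested with edgeR 4.0.16 in R 4.3.3 (TMM, filterByExpr at a minimum count of 10, quasi-likelihood test, Benjamini-Hochberg adjustment, called at 0.05) with kit, or library in the comparison with helper T cells, as a block. The log2 values within kits used a prior count of 2. The replicate number marks the kit. Deviations of same-kit libraries from their group means correlated at r = 0.529 over 4458 genes. Shares were tested by exact permutation over libraries and, as an alternative added later, within kits, by listing every arrangement, with binomial intervals from scipy 1.17.1, after thinning cells to 1000 UMIs where detection was compared. Epithelial background cells had at least 1% of UMIs in Epcam, Krt8 and Krt19, and barcodes of at most 100 UMIs served for free RNA. Levels are 3′ counts, which do not scale with gene length. DESeq2 1.42.0, RLE scaling, other thresholds, doublet removal by Scrublet in scanpy 1.11.5 and leaving out libraries were alternatives. Doublets were not removed otherwise, and the Scrublet rate of 0.8% per 1000 barcodes would have taken out 2 members.

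Besides the list genes, the text names for each comparison across genes the 10 largest rises and falls among called genes with the same sign in every kit pair (every library for helper T cells) and a mean of at least 20 CPM in the higher group, filled by the smallest unadjusted p where fewer were called. Lef1 in epithelial cells, Malat1 and Penk were named after their values were seen. On simulated counts with a dispersion of 0.05 and 200 changed genes, 186 of 200 genes changed by a log2 of 2 were recovered in each comparison. At a log2 of 1, 9 of 200 were recovered for the genotypes and 99 of 200 for helper T cells. P-values measure the spread between libraries and not between mice, as nothing states that libraries came from separate mice. In the edgeR fits, this is the spread left after the block of kit or library is taken out. Against helper T cells, it is the spread over libraries of the difference between the cell groups. Positions are from GENCODE on GRCm38.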

Additional observations from a re-analysis of the deposited data

Results flagged for a closer look

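The difference between cytotoxic lymphocytes and helper T cells itself differed between genotypes for 3 genes, by an interaction term in edgeR. For Penk, the proenkephalin gene, the log2 difference of differences (VApcMinL against ApcMin) was -4.10 ± 0.58 (SE, adjusted p = 4.65e-09 in edgeR). Cytotoxic lymphocytes held 17, 22, 220 and 10 Penk UMIs, and a single cell of ApcMin replicate 2, which was also Foxp3-positive, held 216 of the 220. For Ccl4 the value was -9.45 ± 1.42 (edgeR adjusted p = 3.18e-08) and for Ccl3 -7.49 ± 1.79 (edgeR adjusted p = 0.0176). Helper T cells had Ccl4 UMIs of 0, 22, 0 and 1 and Ccl3 UMIs of 0, 17, 0 and 0. Without helper T cells that had 2 or more macrophage genes, the values were -5.12 for Ccl4 and 0.20 for Ccl3, neither of which passed, and 1 of 1807 genes, Penk, was called.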

How the results depend on the processing

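For VApcMinL against ApcMin in cytotoxic lymphocytes, 1 gene was called. There were 9 calls with a floor of 2000 UMIs, 18 with the cell rule applied after thinning, 2 without the highest Scrublet scores, 2 with cells thinned to 1000 UMIs and 65 with no filter on low counts. Xist was among the calls in each of these. Without the replicate block, which is the kit, 0 genes were called (36 at an unadjusted p under 0.05). Leaving out a library gave 20 to 55 calls, fitted without the kit term, so that 1 lone library was assumed to vary like the other group. Without ApcMin replicates 1 and 2 there were 43 and 23 calls, and without VApcMinL replicates 1 and 2, 20 and 55. Leaving out a library turned the sign of 6 named genes, whose log2 differences then ranged from -3.71 to 1.18 for Jchain, -0.0178 to 2.66 for Spp1, -5.36 to 0.0665 for Il1rl1, -3.71 to 1.27 for Tgfbi, -4.20 to 1.05 for Sparc and -3.06 to 0.607 for Igfbp7. The turn came without ApcMin replicate 1 for Jchain, without VApcMinL replicate 1 for Spp1 and without ApcMin replicate 2 for the other 4. Against helper T cells, 230 genes were called. There were 140 calls with the rule after thinning, 73 with thinned cells, 350 with no filter and 141 with DESeq2, and without the replicate block 105. Leaving out a library gave 160 to 261, and all 322 values of named genes under the alternatives kept their sign and their side of the threshold. These genes had been chosen as called, with the largest differences and the same sign in every library. Their stability was therefore largely set by that choice and is no separate support. The share of kept barcodes differed by -0.0786 to 2.03 points when a library was left out, with -0.0521 without VApcMinL replicate 1 and -0.0786 without ApcMin replicate 2. Within kit V3 it differed by 0.0606 points at a mitochondrial limit of 10% and by 0.0885 points with a floor of 2000 UMIs. The share of T-type cells differed by -4.25 to 1.83 points when a library was left out, the latter without VApcMinL replicate 1. It differed by 4.18 points with a floor of 2000 UMIs, by -7.51 points with the rule after thinning and by -3.37 points at an epithelial limit of 0.1%. The Cd8b1-positive share differed by 0.588 to 8.25 points. Permuting labels within kits (the replicate block, added after the data were seen) left these 3 differences at 0.976, -1.21 and 4.42 points, with exact p of 0.5, 1.00 and 0.5. The γδ share, with 1 library per group, allowed no such step. The causes were not tested.

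Depth limits most of these comparisons: 11 to 33 helper T cells per library, and 46 cytotoxic lymphocytes in ApcMin replicate 2. With 2 libraries per group, no share could reach a p under 0.3333.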

Other observations

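Transcripts known from other T cell programs were also detected. Il17a, the interleukin of type 17 lymphocytes, had 78 UMIs in 5 cells of ApcMin replicate 1 and none in the other 3 libraries. Of these 5 cells, 1 had Cd4 and 0 had Cd8a UMIs. Il22 was likewise seen in ApcMin replicate 1 alone, with 14 UMIs, of which 13 came from 1 cell. Foxp3 was detected in 25 of the 459 cells (5.45%), and Ctla4 in 63 (13.7%).

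Transcripts of the cell cycle were seen in part of the cells. Of the 12 genes in the cell cycle list, 2 or more were detected in 116 of the 459 cytotoxic lymphocytes and 3 or more in 49. Mki67, a proliferation marker, was detected in 27 of the 459 cells, with 8, 3, 3 and 13 cells per library, and Top2a in 40. In helper T cells Mki67 was found in 8 of 94 cells. Its level was 32.3, 28.5, 18.4 and 48.6 CPM in cytotoxic lymphocytes and 34.5, 33.0, 56.4 and 83.7 CPM in free RNA. For scale, the epithelial list summed to 2576, 3151, 5263 and 2494 CPM in cytotoxic lymphocytes. In free RNA it summed to 25132, 37726, 27443 and 17508 CPM. The part of free RNA in the Mki67 level was not tested, and no share of dividing cells is given.

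Mcpt1, a mast cell protease, stood at 14.4, 73.6, 129 and 0 CPM in cytotoxic lymphocytes and at 251, 1624, 482 and 60.7 CPM in free RNA. Mcpt2 stood at 7.18, 54.6, 135 and 0 CPM against 175, 1043, 435 and 71.2 CPM. Both were highest in ApcMin replicate 2 among cytotoxic lymphocytes and in VApcMinL replicate 1 in free RNA. Red blood cell genes summed to 682, 23.7, 0 and 20.02 CPM in cytotoxic lymphocytes, beside 6217, 2066, 1228 and 1408 CPM in free RNA.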
